A study of Homo sapiens with 12 samples.

Results

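The sorting nexins (SNX) and the vacuolar protein sorting (VPS) proteins form much of the machinery that sorts membrane cargo in endosomes and tethers vesicles before they fuse. Their transcripts were followed here in HK-2 cells, an immortalised human line derived from renal proximal tubular epithelium. The genes were chosen by symbol, SNX or VPS followed by a digit, among array probe sets that the platform annotation gives to a single gene. Such probe sets covered 69 of these genes, of which 65 encode proteins. A gene was read from whichever of its probe sets averaged highest across the 12 arrays, and 59 genes (26 SNX and 33 VPS) had a value over log2 4 on at least 3 arrays. They belong to the 11184 genes, of 19775 on the array, that passed this filter. These levels chose the genes and are given as a description. The gene nearest the limit from inside was SNX8, whose third-highest array read log2 5.64, and the nearest from outside was SNX22, whose third-highest array read 3.70. The 10 genes under the filter were SNX20, SNX22, SNX31, SNX32, VPS35L, VPS37D and the non-coding SNX29P2, VPS13A-AS1, VPS13C-DT and VPS9D1-AS1, and none of them reached over log2 3.91 on any array.

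The 4 groups held 3 samples each, which the labels call biological replicates: cells given a high dose of a compound named Aa for 24 h, their vehicle controls at 24 h, cells given the same treatment for 48 h, and their vehicle controls at 48 h. All cells were grown without added serum in a defined medium with EGF, insulin, transferrin and hydrocortisone, and were treated near confluence. The sources used here name neither the identity of Aa nor its dose. The study sought expression signatures of kidney toxicity, and the comparisons below ask how each transcript of the sorting machinery differed between exposed and control cells at each time.

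Sorting nexins carry a PX domain that binds phosphoinositides on endosomes. Some of them bend membrane with a BAR domain, and others act as cargo adaptors. Retromer (VPS26, VPS29 and VPS35) and the related retriever return receptors from endosomes to the Golgi or the cell surface. CORVET and HOPS tether early and late endosomes to their targets and to lysosomes, GARP and EARP tether endosome-derived vesicles at the Golgi and at recycling endosomes, the ESCRT complexes form intralumenal vesicles, and VPS13 proteins move lipids between organelles at contact sites. In the proximal tubule this system recycles the receptors that recover filtered proteins.

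The libraries were alike within groups, with correlations between arrays of one group of 0.994 to 0.997. Of 13 markers of renal epithelium on the array 5 passed the filter (KRT8, KRT18, KRT19, CDH2 and PAX8), and 7, including markers of the mature proximal tubule, never exceeded log2 4. Of the markers of other cell types, 0 of 6 for leukocytes, 1 of 5 for endothelium (TEK), 3 of 6 for fibroblasts (COL1A1, DCN and LUM) and 1 of 5 for distal nephron and podocytes (SLC12A1) passed. Signal at the 3′ end of the control transcripts exceeded that at the 5′ end by 0.394 on average in Aa cultures against 0.306 in controls at 24 h, and by 0.542 in Aa cultures against 0.319 in controls at 48 h, on the log2 scale. The part of this difference in the results below was not tested. These are bulk samples normalised to nearly equal distributions, so fewer cells and less RNA per cell cannot be told apart, and a shift common to nearly all transcripts is hidden.

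In the first day of exposure, changes of the SNX and VPS transcripts went both ways, and by 48 h most of those that changed were lower. At 24 h, 26 of 59 genes passed limma's test at an adjusted p under 0.05, or 44.1%, against 49.1% of all genes tested. Of these, 9 were higher in Aa cultures (15.3%, against 26.3% of all genes) and 17 were lower (28.8%, against 22.8% of all genes). At 48 h, 36 of 59 passed (61.0%, against 64.5% of all genes). Only 5 were higher (8.47%, against 30.6% of all genes) and 31 were lower (52.5%, against 33.9% of all genes). All 5 that were higher were VPS genes, and of the 26 SNX genes 0 were higher and 15 lower. The median log2 change was -0.10 at 24 h and -0.36 at 48 h, beside 0.02 and -0.03 over all genes tested. With a log2 change of at least 1, the counts were 4 higher and 6 lower at 24 h (10.9% and 9.76% of all genes) and 3 higher and 16 lower at 48 h (14.6% and 17.3% of all genes). Between control cultures at 48 h and 24 h, limma called 0 of the 59 (0.635% of all genes), and with the replicate block 4 (14.9% of all genes). An unadjusted limma p under 0.05 was found for 6 of the 59, a count not made over all genes. The 4 called with the block were SNX13, SNX30, VPS13C and VPS37B, with log2 changes of 0.59, 0.65, 0.78 and -0.51. Their limma adjusted p with the block was 0.00559, 0.00672, 0.00738 and 0.0444. Scaling to the hybridisation controls, which moved the median over all genes to -0.265 at 24 h and -0.468 at 48 h, let 60 family genes pass the filter. Of these, 5 were then higher and 26 lower at 24 h (14.7% and 34.6% of all genes), and 3 higher and 44 lower at 48 h (16.0% and 53.0% of all genes).

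**Figure D1:**
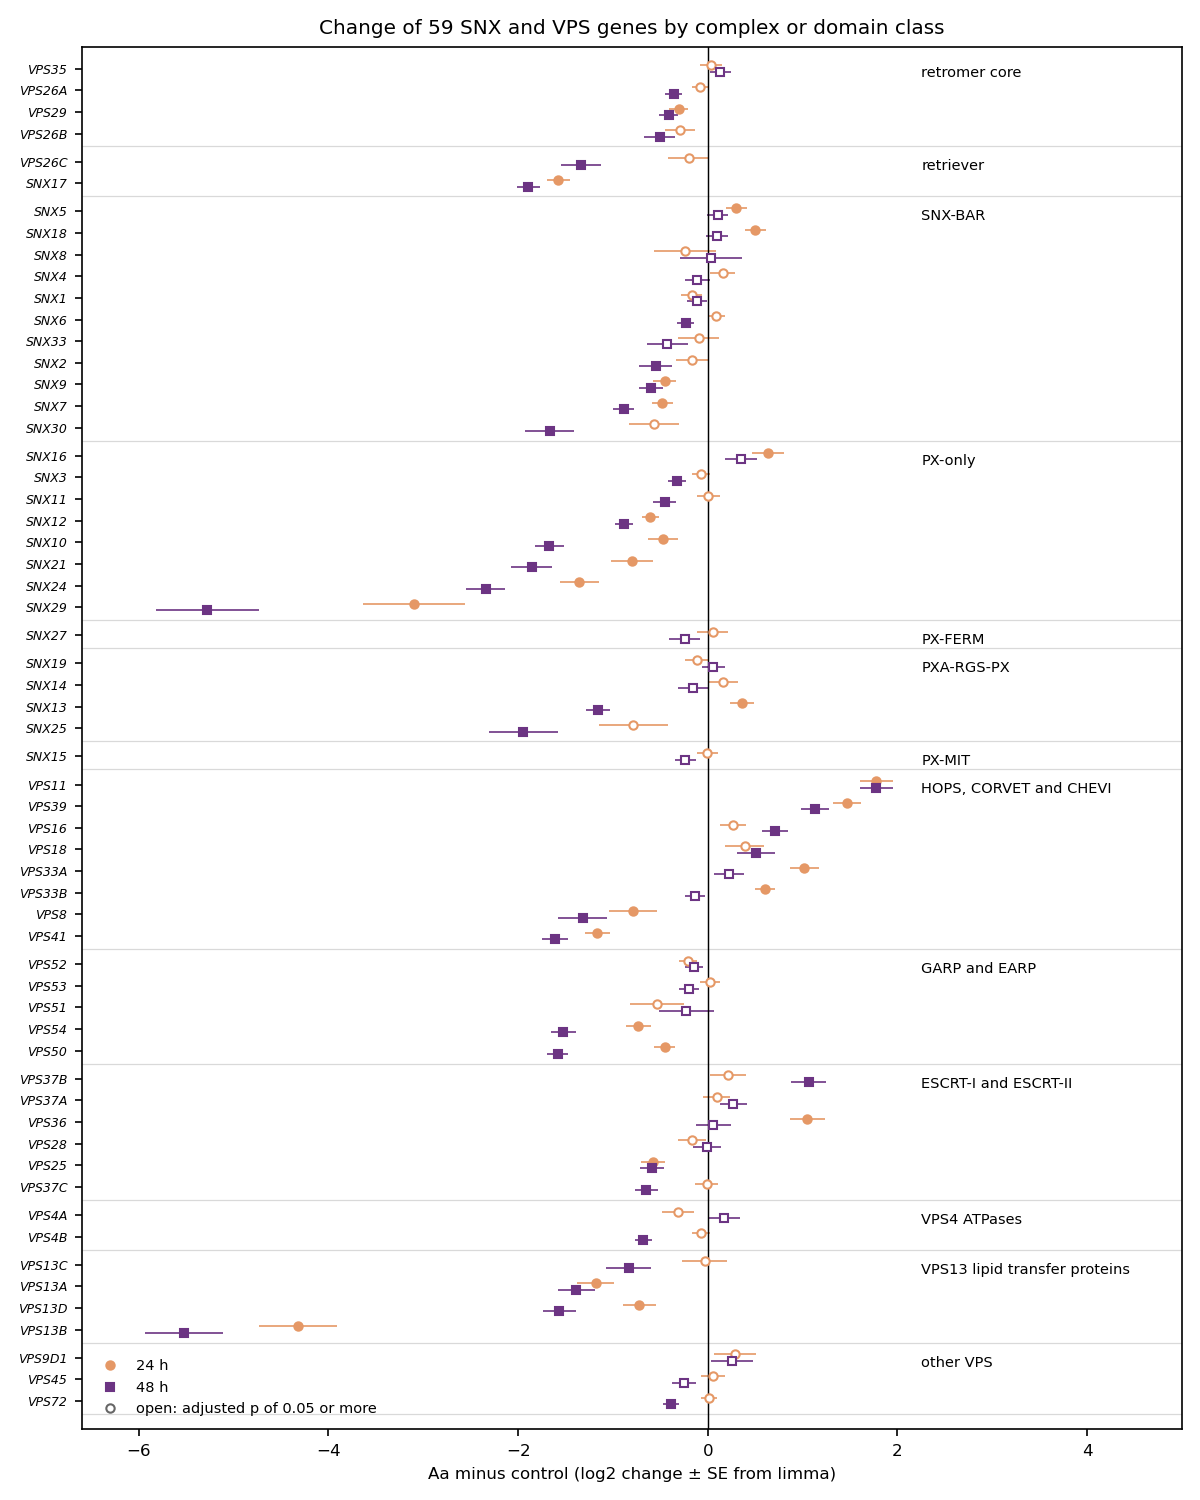
Log2 change of each of the 59 genes (Aa minus control, ± SE from limma) at 24 h (circles) and 48 h (squares), grouped by complex or domain class; filled symbols have an adjusted p under 0.05. VPS13B and SNX29 lie far to the left at both times, and VPS11 and VPS39 are the largest positive values at 48 h.

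The core genes of retromer had log2 changes no larger in size than that of VPS26B at 48 h, and 0 of 4 were called higher. VPS29, a scaffold subunit, read 12.08, 12.21 and 12.09 in Aa cultures against 12.36, 12.49 and 12.45 in controls at 24 h, and 11.78, 11.87 and 11.92 in Aa cultures against 12.11, 12.28 and 12.43 in controls at 48 h. Its groups did not overlap at either time, and the log2 change was -0.31 at 24 h (SE 0.10, limma adjusted p = 0.0265) and -0.41 at 48 h (adjusted p = 0.00412). The 24 h call was lost with the mean of all probe sets and when any of 4 arrays was left out (replicates 1 and 3 of Aa and replicates 2 and 3 of control at 24 h, limma adjusted p up to 0.0815). VPS26A and VPS26B, alternative cargo-arm subunits, were lower at 48 h by a log2 change of -0.36 (adjusted p = 0.00426) and -0.51 (adjusted p = 0.0178) and did not pass at 24 h (-0.08, adjusted p = 0.491, and -0.29, adjusted p = 0.160). The VPS26B call at 48 h was lost without Aa replicate 2 (limma adjusted p = 0.0737) or control replicate 1 (adjusted p = 0.0696). Both 48 h calls were lost with the mean of all probe sets, which takes in those under the filter. The other VPS26A probe set lay under it, with a mean of log2 2.77 and a difference of 0.05 at 48 h. VPS35, the backbone on which the complex assembles, ranged from 12.33 to 12.67 in Aa cultures and from 12.31 to 12.76 in controls. Its log2 change was 0.03 at 24 h (limma adjusted p = 0.823) and 0.13 at 48 h (adjusted p = 0.321), and its sign differed between its probe sets.

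SNX17 and VPS26C, grouped here with retriever, were both lower at 48 h. SNX17, the adaptor that binds LDL-receptor-family and integrin tails for recycling, read 9.23, 9.02 and 8.97 in Aa cultures against 10.51, 10.66 and 10.78 in controls at 24 h. At 48 h it read 8.92, 8.57 and 8.76 in Aa cultures against 10.65, 10.57 and 10.70 in controls. Every Aa array was more than 1 log2 unit under every control array. The fall was 2.98-fold at 24 h (log2 change -1.57, SE 0.12, limma adjusted p = 2.01e-06) and 3.71-fold at 48 h (log2 change -1.89, adjusted p = 3.05e-07). VPS26C, the arrestin-like subunit of retriever, did not pass at 24 h (log2 change -0.20, limma adjusted p = 0.461). At 48 h it read 7.51, 7.52 and 6.65 in Aa cultures against 8.57, 8.72 and 8.40 in controls, a log2 change of -1.34 (adjusted p = 0.000232). VPS35L, another retriever subunit, lay under the filter.

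Among the SNX-BAR proteins, which tubulate endosomal membrane, the probe sets used for SNX1, SNX5 and SNX6 had log2 changes up to 0.30 in size. SNX5 and SNX6, retromer-associated cargo adaptors, had log2 changes of 0.30 and 0.09 at 24 h (limma adjusted p = 0.0452 and 0.430) and 0.11 and -0.23 at 48 h (adjusted p = 0.428 and 0.0401). The SNX5 call at 24 h was lost with scaling to the hybridisation controls, with the mean of all probe sets and with the 24 h arrays alone. It was also lost in 9 of the 12 fits that left out 1 array, and the SNX6 call at 48 h in 8, with limma adjusted p up to 0.146 and 0.136. The other SNX5 probe sets over the filter differed by -0.80 to 1.56 at 24 h and -0.09 to 4.04 at 48 h. With the probe set used, SNX1 did not pass at either time (-0.17 and -0.11, limma adjusted p = 0.217 and 0.388). Its other probe sets over the filter differed by 2.22 and -0.19 at 24 h, and by 1.24 and -0.06 at 48 h. SNX2, its closest relative, was lower at 48 h (-0.55, adjusted p = 0.0161, and 0.0691 without control replicate 2). SNX30, a partner of SNX4 in recycling and autophagy, read 7.34, 7.20 and 6.60 in Aa cultures against 9.04, 8.92 and 8.18 in controls at 48 h, a log2 change of -1.67 (limma adjusted p = 0.000213). Its 24 h change of -0.57 had an adjusted p of 0.0970, and of 0.00100 with the replicate number as a block. SNX7, close to SNX30 in sequence, was lower at both times (-0.48 and -0.89, limma adjusted p = 0.00391 and 3.66e-05), as was SNX9, a dynamin-binding protein of clathrin-coated pits (-0.45 and -0.60, adjusted p = 0.0105 and 0.00145). SNX18, a paralogue of SNX9, was higher at 24 h (0.50, adjusted p = 0.00360), but not with scaling to the hybridisation controls, and did not pass at 48 h (0.10, adjusted p = 0.467). SNX4, SNX8 and SNX33 did not pass at either time, with log2 changes between -0.43 and 0.16.

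Sorting nexins placed here in a PX-only class included SNX29 and SNX24, the largest fitted falls among the SNX genes at 48 h. Of the 8 tested, 5 were lower at 24 h (22.8% of all genes) and 7 at 48 h (33.9% of all genes). SNX29 read 4.79, 5.67 and 3.61 in Aa cultures against 7.96, 8.37 and 7.02 in controls at 24 h, and 4.14, 3.14 and 2.68 in Aa cultures against 8.62, 9.04 and 8.14 in controls at 48 h. With Aa arrays under log2 4 entered at that level, the fall was at least 7.81-fold at 24 h (limma adjusted p = 0.000702) and at least 23.5-fold at 48 h (adjusted p = 9.10e-06). SNX24 read 6.94, 7.51 and 7.20 in Aa cultures against 8.64, 8.76 and 8.32 in controls at 24 h, and 6.64, 6.06 and 6.00 in Aa cultures against 8.45, 8.81 and 8.46 in controls at 48 h. No Aa array reached the control range, and its log2 change was -1.36 (adjusted p = 0.000280) and -2.34 (adjusted p = 3.07e-06). SNX10, an endosomal protein needed for bone resorption by osteoclasts, read at 48 h 10.81, 10.59 and 10.18 in Aa cultures against 12.11, 12.23 and 12.26 in controls. Its log2 change was -0.47 at 24 h (limma adjusted p = 0.0251, and up to 0.0859 when replicate 1 or 3 of Aa or replicate 1 or 2 of control was left out) and -1.67 at 48 h (adjusted p = 4.22e-06). SNX21 read 4.93, 4.65 and 3.99 in Aa cultures against 6.50, 6.49 and 6.15 in controls at 48 h, at least 3.61-fold lower (adjusted p = 2.36e-05). SNX12 was lower at both times (-0.61 and -0.88, adjusted p = 0.000244 and 9.33e-06). Its relative SNX3, which works with retromer in recycling the Wnt carrier Wntless, was lower at 48 h by a log2 change of -0.33 (adjusted p = 0.00990). SNX11 was lower at 48 h alone (-0.46, limma adjusted p = 0.00683). SNX16 was higher at 24 h (0.64, adjusted p = 0.00950), but not with scaling to the hybridisation controls, and did not pass at 48 h.

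The remaining sorting nexins behaved unlike each other. SNX13, found where the endoplasmic reticulum meets endosomes and lysosomes, read 8.81, 8.94 and 8.65 in Aa cultures against 8.58, 8.43 and 8.31 in controls at 24 h. At 48 h it read 7.89, 7.91 and 7.81 in Aa cultures against 9.20, 9.10 and 8.79 in controls. The Aa arrays thus lay above the controls at 24 h and below them at 48 h. The 24 h log2 change of 0.36 (limma adjusted p = 0.0347) was seen in 1 of 4 probe sets, the other 3 having values of -0.24, -0.15 and -0.12, and the call was lost with quantile normalization, with scaling to the hybridisation controls and with the mean of all probe sets. The limma adjusted p was up to 0.119 when replicate 1 or 2 of Aa or replicate 2 or 3 of control was left out. The 48 h log2 change of -1.16 (adjusted p = 1.47e-05) had the same sign in all 4. SNX25, of the same domain class, read 7.94, 7.63 and 6.36 in Aa cultures against 9.54, 9.28 and 8.93 in controls at 48 h (log2 change -1.94, limma adjusted p = 0.000676). At 24 h its groups did not overlap, with a log2 change of -0.79 and an adjusted p of 0.0946, or 0.0145 with the replicate block. SNX14 and SNX19 of that class did not pass at either time. Nor did SNX27, the PDZ-containing adaptor that links cargo to retromer (0.05 and -0.24, limma adjusted p = 0.829 and 0.219), or SNX15 (-0.01 and -0.24, adjusted p = 0.974 and 0.0780), although SNX15 at 48 h had an adjusted p of 0.0310 with the replicate block.

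**Figure D2:**
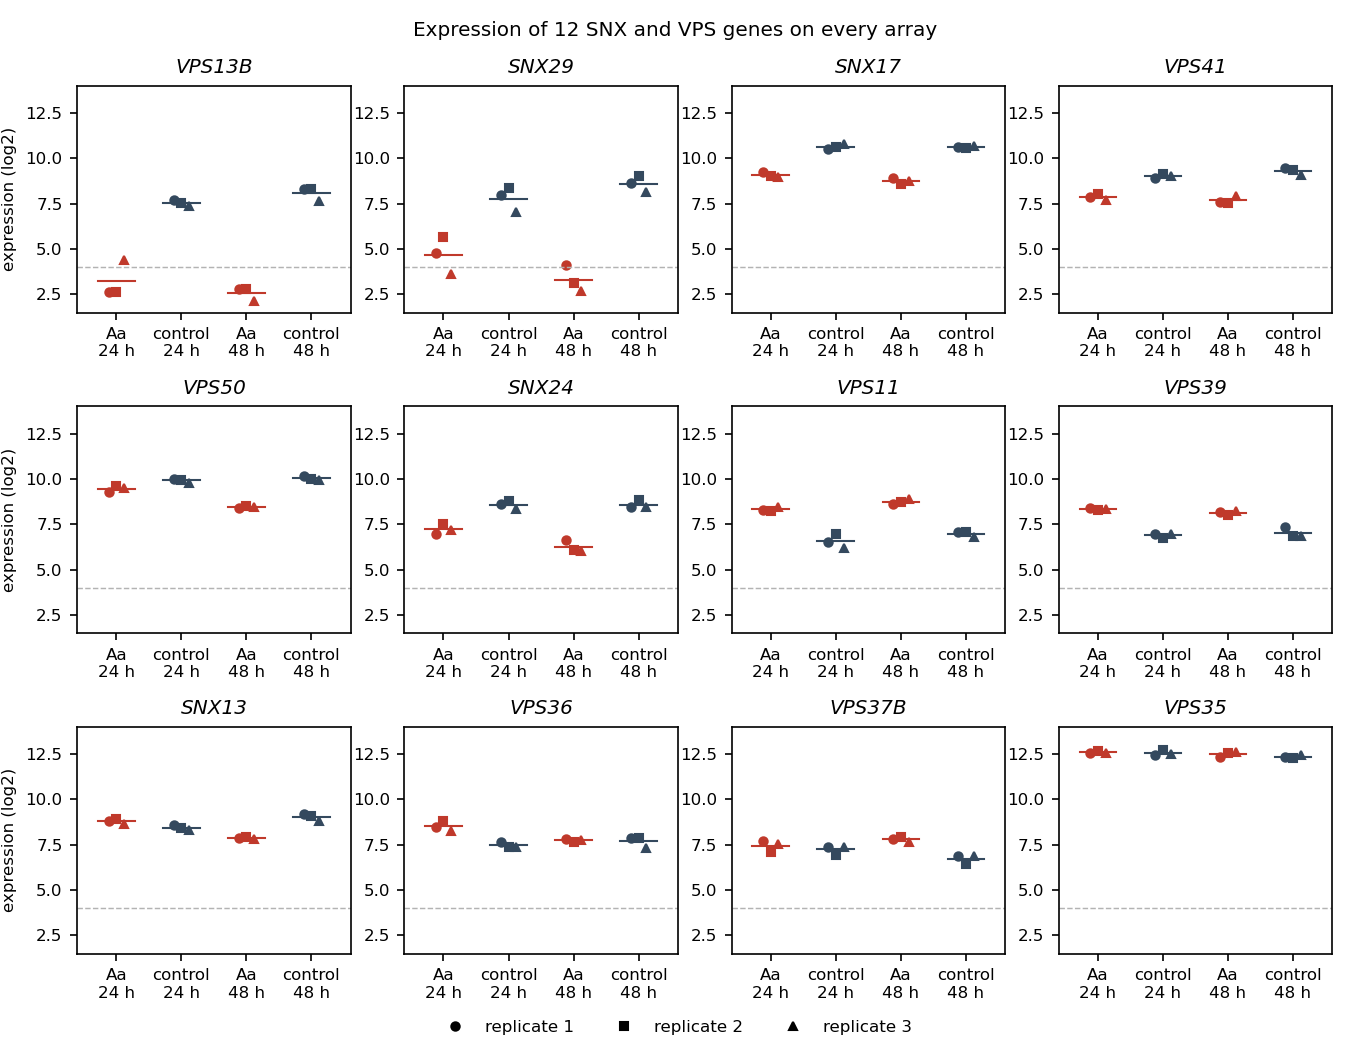
Log2 expression of 12 SNX and VPS genes on every array, with Aa left of its control at 24 h and 48 h; symbols mark the replicate number, bars the group mean, and the dashed line log2 4. VPS13B and SNX29 drop near or below the dashed line in Aa cultures, VPS11 and VPS39 lie above their controls at both times, and VPS35 does not separate.

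The subunits of the tethering complexes HOPS and CORVET split. VPS11, a core subunit of both, read 8.31, 8.25 and 8.43 in Aa cultures against 6.55, 6.95 and 6.18 in controls at 24 h, and 8.64, 8.72 and 8.89 in Aa cultures against 7.08, 7.05 and 6.79 in controls at 48 h. It was 3.42-fold higher at both times (log2 change 1.77 and 1.77, SE 0.17, limma adjusted p = 1.28e-05 and 6.45e-06). VPS39, found in HOPS, read 8.43, 8.28 and 8.35 in Aa cultures against 6.95, 6.77 and 6.94 in controls at 24 h, and 8.16, 7.99 and 8.26 in Aa cultures against 7.35, 6.84 and 6.83 in controls at 48 h. Its log2 change was 1.47 (limma adjusted p = 1.28e-05) and 1.13 (adjusted p = 4.43e-05). VPS11 and VPS39 were the only members called higher at both times, and each rests on a single probe set. The core subunits VPS16 and VPS18 were called higher at 48 h (0.71, limma adjusted p = 0.000907, and 0.51, adjusted p = 0.0452) and not at 24 h, where they had an adjusted p of 0.131 and 0.136, or 0.0409 and 0.0158 with the replicate block. Neither 48 h call held with scaling to the hybridisation controls, and the VPS18 call was lost in 6 of the 12 fits without 1 array (adjusted p up to 0.164). VPS33A, which docks SNARE proteins in HOPS, read 8.76, 9.13 and 8.73 in Aa cultures against 7.90, 7.72 and 7.93 in controls at 24 h (log2 change 1.02, adjusted p = 0.000272), while its groups overlapped at 48 h (0.22, adjusted p = 0.225). VPS33B, its counterpart in a complex with VIPAS39, was also higher at 24 h (0.60, adjusted p = 0.000734) and did not pass at 48 h (-0.13, adjusted p = 0.285).

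VPS41 and VPS8, which belong to HOPS and CORVET alone, fell at both times. VPS41, of HOPS, read 7.90, 8.02 and 7.72 in Aa cultures against 8.93, 9.14 and 9.06 in controls at 24 h, and 7.60, 7.56 and 7.93 in Aa cultures against 9.46, 9.34 and 9.10 in controls at 48 h. All Aa arrays were under all controls, with a log2 change of -1.16 (limma adjusted p = 4.74e-05) and -1.61 (adjusted p = 2.42e-06). VPS8, of CORVET, read 6.56, 7.27 and 6.35 in Aa cultures against 8.05, 8.20 and 7.89 in controls at 48 h (log2 change -1.32, adjusted p = 0.000882). Its 24 h change of -0.79 had a limma adjusted p of 0.0237, which was lost without Aa replicate 1 (0.0949), control replicate 1 (0.0532) or control replicate 2 (0.0731). VPS39, also of HOPS alone, was the exception described above. VPS41 spans 186.2 kb and VPS8 240.4 kb. Of all genes of 100 to 200 kb 62.7% were lower at 48 h, and of those of 200 kb or more 86.3%. VPS11, VPS16, VPS18, VPS33A, VPS33B and VPS39 span 9.53 to 49.6 kb. The part of span in this split was not tested.

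Promoters are printed for the genes called higher at 48 h, which are few enough to be read side by side. The motifs searched were the E-box CACGTG, the cyclic AMP response element and the AP-1 site. The sequences are the 250 bases upstream of each gene's start in RefSeq on GRCh38.p14, written along the gene's strand, with capitals marking the motifs found. VPS18 is named only. VPS11 (chr11:119067568-119067817, plus strand) holds the E-box at 2 places, VPS16 (chr20:2840495-2840744, plus strand) at 1, and VPS37B (chr12:122896125-122896374, minus strand), an ESCRT-I gene described below, at 1, together with 2 copies of the response element TGACGTCA. VPS39 (chr15:42208305-42208554, minus strand) holds none of the motifs searched.
VPS11: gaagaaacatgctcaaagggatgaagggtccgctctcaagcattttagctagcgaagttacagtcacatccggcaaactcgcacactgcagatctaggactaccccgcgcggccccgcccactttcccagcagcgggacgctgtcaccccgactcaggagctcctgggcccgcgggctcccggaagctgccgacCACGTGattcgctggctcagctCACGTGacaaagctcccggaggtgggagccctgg
VPS16: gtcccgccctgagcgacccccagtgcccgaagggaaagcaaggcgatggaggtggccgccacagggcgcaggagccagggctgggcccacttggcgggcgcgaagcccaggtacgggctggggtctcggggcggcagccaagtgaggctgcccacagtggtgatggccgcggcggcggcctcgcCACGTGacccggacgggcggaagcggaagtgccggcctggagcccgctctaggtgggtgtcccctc
VPS37B: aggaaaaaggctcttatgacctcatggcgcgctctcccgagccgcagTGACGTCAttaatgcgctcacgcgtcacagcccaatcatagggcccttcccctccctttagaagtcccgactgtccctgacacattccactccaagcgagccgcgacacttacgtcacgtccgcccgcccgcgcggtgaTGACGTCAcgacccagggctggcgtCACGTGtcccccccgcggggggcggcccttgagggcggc
VPS39: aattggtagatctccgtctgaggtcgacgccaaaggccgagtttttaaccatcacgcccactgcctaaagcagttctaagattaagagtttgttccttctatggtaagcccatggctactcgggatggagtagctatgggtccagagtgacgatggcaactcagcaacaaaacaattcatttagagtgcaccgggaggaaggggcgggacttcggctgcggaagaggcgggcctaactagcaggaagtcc

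Promoters of 45 of the 59 genes were matched by symbol. The E-box, searched as CACGTG, which reads the same on both strands, lay in 4 of the 45 (8.89%: SNX8, VPS11, VPS16 and VPS37B), against 6.49% of 27305 promoters of the same length. The cyclic AMP response element TGACGTCA, also the same on both strands, lay in 2 (4.44%, SNX5 and VPS37B, against 1.77% of all), and the AP-1 site TGANTCA, searched on both strands, in 3 (6.67%, SNX10, SNX27 and VPS8, against 6.60% of all). None of the motif matches in the printed promoters overlapped another. A match describes the letters, and no binding was measured.

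The GARP and EARP complexes share VPS51, VPS52 and VPS53, and each has a subunit of its own. Both of those subunits fell, whereas the shared ones, with the probe sets used, did not pass at either time. VPS50, of EARP, read 9.29, 9.59 and 9.53 in Aa cultures against 10.02, 9.96 and 9.80 in controls at 24 h, and 8.38, 8.51 and 8.45 in Aa cultures against 10.16, 9.99 and 9.95 in controls at 48 h. The gap widened with time, the log2 change being -0.46 (limma adjusted p = 0.00549) and -1.58 (adjusted p = 6.23e-07). VPS54, of GARP, read 8.71, 8.88 and 8.61 in Aa cultures against 9.52, 9.54 and 9.34 in controls at 24 h, and 8.20, 8.11 and 7.74 in Aa cultures against 9.49, 9.63 and 9.51 in controls at 48 h, with a log2 change of -0.74 (adjusted p = 0.000837) and -1.52 (adjusted p = 2.70e-06). VPS51 and VPS52 had log2 changes of -0.54 and -0.21 at 24 h (limma adjusted p = 0.147 and 0.0977, or 0.00242 and 0.0438 with the replicate block) and -0.23 and -0.15 at 48 h (adjusted p = 0.511 and 0.211). VPS53 stood at 0.02 and -0.20 (limma adjusted p = 0.870 and 0.130). Its other probe sets over the filter differed by 1.41 and -0.59 at 24 h, and by 1.46 and -0.66 at 48 h. VPS50 and VPS54 span 128.8 and 127.3 kb, and of all genes of 100 to 200 kb 62.7% were lower at 48 h. The shared VPS51, VPS52 and VPS53 span 15.65, 21.69 and 206.2 kb. The part of span in this contrast was not tested.

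In the ESCRT machinery, VPS36 of ESCRT-II, which binds ubiquitin and membrane lipid, read 8.51, 8.83 and 8.24 in Aa cultures against 7.64, 7.40 and 7.38 in controls at 24 h. At 48 h it read 7.80, 7.65 and 7.78 in Aa cultures against 7.87, 7.89 and 7.30 in controls, so that only the 24 h groups stood apart. The log2 change was 1.05 at 24 h (limma adjusted p = 0.000706) and 0.06 at 48 h (adjusted p = 0.802). VPS37B of ESCRT-I showed the opposite timing. It read 7.69, 7.12 and 7.56 in Aa cultures against 7.40, 6.95 and 7.38 in controls at 24 h, which overlap, and 7.83, 7.91 and 7.64 in Aa cultures against 6.88, 6.43 and 6.88 in controls at 48 h. Its log2 change was 0.21 (adjusted p = 0.370) and 1.06 (adjusted p = 0.000470). Its paralogue VPS37C was lower at 48 h (-0.65, adjusted p = 0.000692), VPS37A (0.09 and 0.27, adjusted p = 0.622 and 0.120) and VPS28 (-0.17 and -0.01, adjusted p = 0.388 and 0.968) did not pass, and VPS25, an ESCRT-II subunit, was lower at both times (-0.58 and -0.59, adjusted p = 0.00266 and 0.00163). Of the ATPases that recycle ESCRT-III, VPS4B was lower at 48 h, with 9.50, 9.49 and 9.52 in Aa cultures against 10.19, 10.19 and 10.16 in controls (log2 change -0.68, adjusted p = 8.13e-05). VPS4A did not pass (-0.31 and 0.17, limma adjusted p = 0.138 and 0.388), although its 24 h value had an adjusted p of 0.00741 with the replicate block.

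The VPS13 genes, which encode very large bridge-like lipid transfer proteins and underlie several neurological disorders, were lower in 3 of 4 cases at 24 h and in all 4 at 48 h. Each of the 4 spans 200 kb or more, and of all genes of that span 74.4% were lower at 24 h and 86.3% at 48 h. VPS13B, a Golgi protein mutated in Cohen syndrome, read 2.65, 2.64 and 4.37 in Aa cultures against 7.69, 7.55 and 7.37 in controls at 24 h, and 2.80, 2.80 and 2.15 in Aa cultures against 8.34, 8.32 and 7.66 in controls at 48 h. All but 1 of the 6 Aa arrays lay under log2 4, so the fall was at least 10.7-fold at 24 h (limma adjusted p = 1.02e-05) and at least 17.2-fold at 48 h (adjusted p = 9.34e-07). It passed the filter through 7 arrays, 6 of them controls. VPS13A, mutated in chorea-acanthocytosis, read 5.53, 5.72 and 5.44 in Aa cultures against 6.66, 6.96 and 6.61 in controls at 24 h, and 5.40, 5.80 and 5.69 in Aa cultures against 7.00, 7.43 and 6.62 in controls at 48 h (log2 change -1.18 and -1.39, adjusted p = 0.000490 and 9.36e-05). VPS13D, which acts in mitochondrial upkeep, read 6.31, 6.30 and 6.37 in Aa cultures against 6.99, 7.28 and 6.87 in controls at 24 h, and 6.08, 5.43 and 5.82 in Aa cultures against 7.28, 7.58 and 7.18 in controls at 48 h. None of these arrays overlapped between groups, and the log2 change was -0.72 (limma adjusted p = 0.00510) and -1.57 (adjusted p = 1.58e-05). VPS13C, at contacts of late endosomes and lipid droplets with the endoplasmic reticulum, was lower at 48 h (-0.83, adjusted p = 0.00999) and stood at -0.03 at 24 h (adjusted p = 0.915). Its other probe set over the filter, which averaged only log2 3.24 across arrays, differed by -1.06 at 24 h and -1.99 at 48 h.

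The other genes were VPS45, a regulator of SNARE assembly, VPS9D1, and VPS72, which is a subunit of chromatin remodelling complexes. VPS45 had log2 changes of 0.05 and -0.25 (limma adjusted p = 0.742 and 0.0954, the second 0.0238 with the replicate block). VPS72 was lower at 48 h (-0.39, adjusted p = 0.00154), and VPS9D1 did not pass (0.29 and 0.26, adjusted p = 0.309 and 0.327).

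The 2 times were set against each other in the same fit. Of the 59 genes, 2 were higher at both times, 17 lower at both, and 1, SNX13, higher at 24 h and lower at 48 h. A further 6 were higher at 24 h and not called at 48 h, 3 were called higher and 13 lower at 48 h alone, and 17 were not called at either time. The same joint counts were not made over all genes, of which 49.1% were called at 24 h and 64.5% at 48 h. The test of the difference (the 48 h change minus the 24 h change) called 15 genes (25.4%, against 19.5% of all genes), with 14 negative and 1 positive (12.7% and 6.8% of all genes). Among them were SNX13 (-1.52, limma adjusted p = 0.000886), SNX10 (-1.20, adjusted p = 0.00595), VPS50 (-1.13, adjusted p = 0.00193) and VPS33B (-0.74, adjusted p = 0.00889). The positive one was VPS37B (0.85, adjusted p = 0.0459). It was lost in 9 of the 12 fits that left out 1 array (limma adjusted p up to 0.104), and the count of negative ones lay between 6 and 17 in those fits. The lowest count came from leaving out replicate 2 of Aa or replicate 3 of control at 24 h, or replicate 2 of control at 48 h. It fell to 8 without replicate 1 of control at either time and to 9 without replicate 3 of Aa at 48 h. With the replicate block the counts were 23 negative and 3 positive (23.1% and 15.4% of all genes), and the added genes included SNX29, SNX30 and SNX25. Such a difference also holds any change between the control times. From 24 h to 48 h the VPS37B mean went from 7.24 to 6.73 in controls and from 7.46 to 7.79 in Aa cultures. The SNX13 mean went from 8.44 to 9.03 in controls and from 8.80 to 7.87 in Aa cultures.

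**Figure D3:**
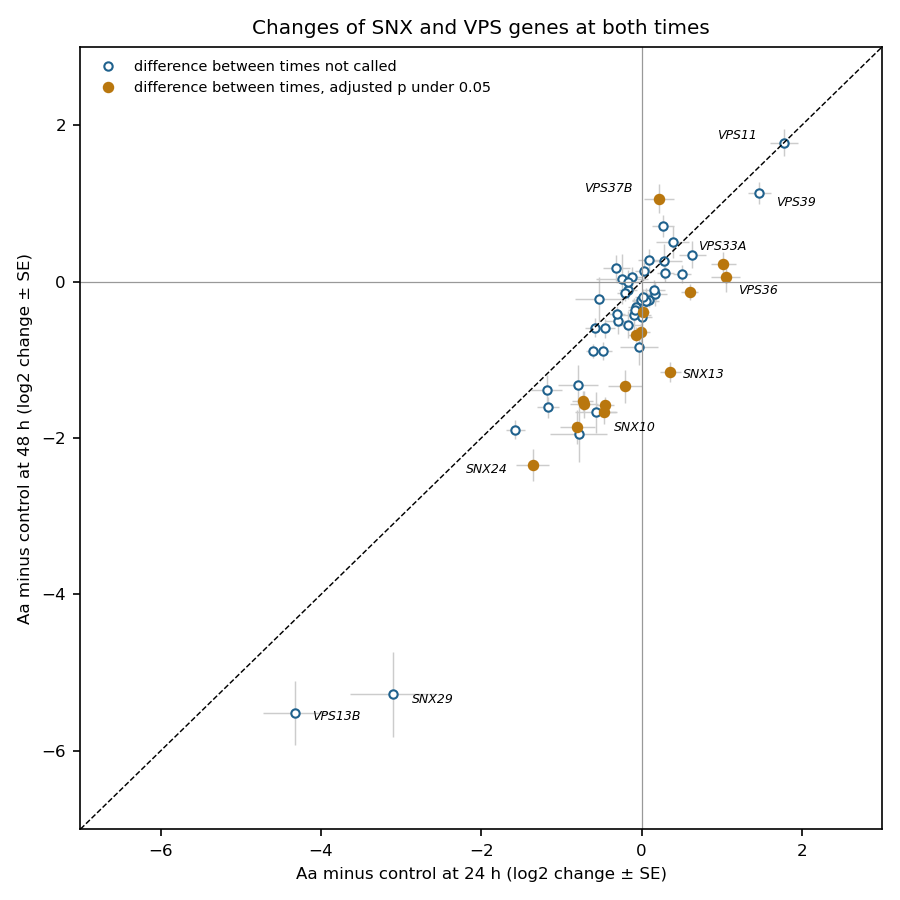
Log2 change at 48 h against that at 24 h (Aa minus control, ± SE from limma) for the 59 genes, with the line of equal change dashed; filled points have a difference between the times with an adjusted p under 0.05. Most filled points lie under the line, SNX13 has opposite signs at the 2 times, and VPS37B lies above the line.

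Genes that work with these proteins were counted in 8 lists, to be read against 26.3% higher and 22.8% lower of all genes at 24 h, and 30.6% higher and 33.9% lower at 48 h. Among retromer partners and the WASH complex, 4 of 13 tested genes were higher and 3 lower at 24 h, and 1 higher and 6 lower at 48 h. TBC1D5, a RAB7 GTPase-activating protein that binds retromer, read 5.70, 5.62 and 6.59 in Aa cultures against 8.37, 8.55 and 8.22 in controls at 24 h, and 5.16, 3.09 and 4.80 in Aa cultures against 8.68, 8.64 and 8.57 in controls at 48 h (limma adjusted p = 0.00101 and 1.01e-05, at least 15.7-fold lower at 48 h). RAB38, a GTPase bound by the retromer partner ANKRD27, had a log2 change of -3.53 at 48 h (adjusted p = 4.76e-05). The Commander complex, which includes retriever, had 2 of 12 tested genes outside the family higher and 3 lower at 24 h, and 4 higher and 4 lower at 48 h. COMMD10 read 5.27, 5.52 and 5.74 in Aa cultures against 8.12, 8.33 and 8.20 in controls at 24 h, and 3.82, 2.31 and 2.24 in Aa cultures against 7.93, 8.29 and 7.89 in controls at 48 h. It was at least 16.4-fold lower at 48 h (limma adjusted p = 3.88e-07), and COMMD1, a founding subunit, had a log2 change of -4.23 (adjusted p = 3.24e-06).

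Of the sorting receptors and cargo, 1 of 14 tested was higher and 6 lower at 24 h, and 2 higher and 5 lower at 48 h. The copper transporter ATP7A and the TGF-beta receptor TGFBR2 had log2 changes of -2.32 and -1.51 at 48 h (limma adjusted p = 2.78e-05 and 3.03e-07). HOPS and CORVET partners had 3 of 22 higher and 5 lower at 24 h, and 2 higher and 10 lower at 48 h. The late endosomal SNAREs STX8 and STX7 were lower at 48 h, STX8 by at least 24.3-fold (adjusted p = 5.19e-05) and STX7 by a log2 change of -1.93 (adjusted p = 6.38e-07). Of trans-Golgi tethers and SNAREs, 7 of 22 were higher and 5 lower at 24 h, and 8 each way at 48 h. COG5, of the conserved oligomeric Golgi complex, was at least 32.4-fold lower at 48 h (limma adjusted p = 2.96e-05), and EIPR1, which binds EARP, had a log2 change of -2.54 (adjusted p = 3.04e-06).

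ESCRT genes outside the family had 7 of 21 higher and 5 lower at 24 h, and 7 higher and 7 lower at 48 h. CHMP1B and CHMP2A, both of the ESCRT-III family, moved apart: CHMP1B read 11.07, 11.40 and 11.59 in Aa cultures against 9.32, 9.40 and 9.67 in controls at 48 h (log2 change 1.89, limma adjusted p = 1.75e-06), and CHMP2A read 9.91, 8.91 and 9.27 in Aa cultures against 11.69, 12.05 and 11.98 in controls (log2 change -2.54, adjusted p = 2.62e-06). The kinases and phosphatases of endosomal phosphoinositides, which make and remove the lipids that PX domains bind, had 7 of 25 higher and 8 lower at 24 h, and 5 higher and 13 lower at 48 h. INPP4B, a phosphatase that yields PI3P, was at least 9.92-fold lower at 48 h (limma adjusted p = 3.04e-07), and UVRAG, a subunit of the PI3P kinase complex, at least 7.12-fold lower (adjusted p = 6.48e-06). All Aa arrays of INPP4B lay under log2 4, so it passed the filter through control arrays alone. Clathrin and dynamin partners had 5 of 31 higher and 8 lower at 24 h, and 4 higher and 10 lower at 48 h, with AP3B1 of the AP-3 adaptor at a log2 change of -2.35 (adjusted p = 3.92e-07) and FNBP1L, a membrane-bending protein, at -1.58 (adjusted p = 5.13e-05) at 48 h. These counts describe the lists and single none of them out.

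Changes varied with the length of the gene, in the family as over the array. The largest falls were in long genes, VPS13B spanning 864 kb and SNX29 598 kb in RefSeq. Of the 7 family genes of 200 kb or more, 6 were lower at 48 h (85.7%), against 86.3% of the 708 such genes tested. Of the 10 spanning 100 to 200 kb, 8 were lower (80.0%, against 62.7% of such genes). Among the 15 genes under 20 kb, 7 were lower (46.7%) and 2 higher (13.3%), where all genes of that length were 21.2% lower and 39.2% higher. SNX17, at 6.92 kb, was the largest fitted fall among them at both times. Across genes, which are not independent and share the same arrays, Spearman's rho between span and log2 change was -0.267 at 24 h and -0.420 at 48 h over the 59 genes, beside -0.247 and -0.366 over 11176 genes.

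**Figure D4:**
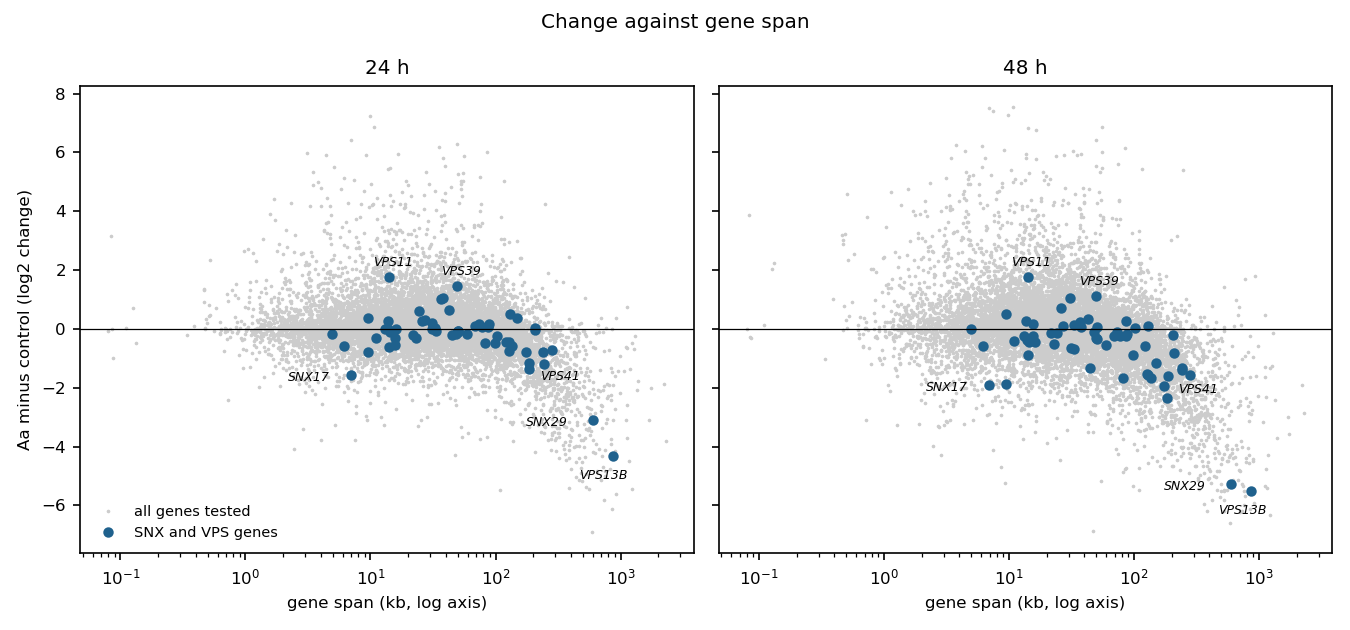
Log2 change (Aa minus control) against gene span in kb on a log axis, for the 59 SNX and VPS genes (blue) and all genes tested (grey), at 24 h and 48 h. VPS13B and SNX29 sit at the long end among the lowest values, and SNX17 at 6.92 kb falls below most short genes.

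For 36 of the genes more than 1 probe set passed the filter. All probe sets of a gene moved the same way in 25 of the 36 at 24 h and in 28 at 48 h. Among those of the 36 that were called, the probe sets shared a sign for 15 of 17 at 24 h, the exceptions being SNX13 and SNX5, and for 23 of 23 at 48 h. The other 23 genes, among them SNX17, VPS11, VPS39 and SNX10, had a single probe set over the filter. With the mean of all probe sets of a gene, 8 of 58 genes were called higher at 48 h and 29 lower. Of all genes, with the probe sets used, 30.6% were higher and 33.9% lower. The median log2 change at 48 h with probe set means was -0.325 over the 58 genes and 0.0063 over all 10475 genes tested.

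**Figure D5:**
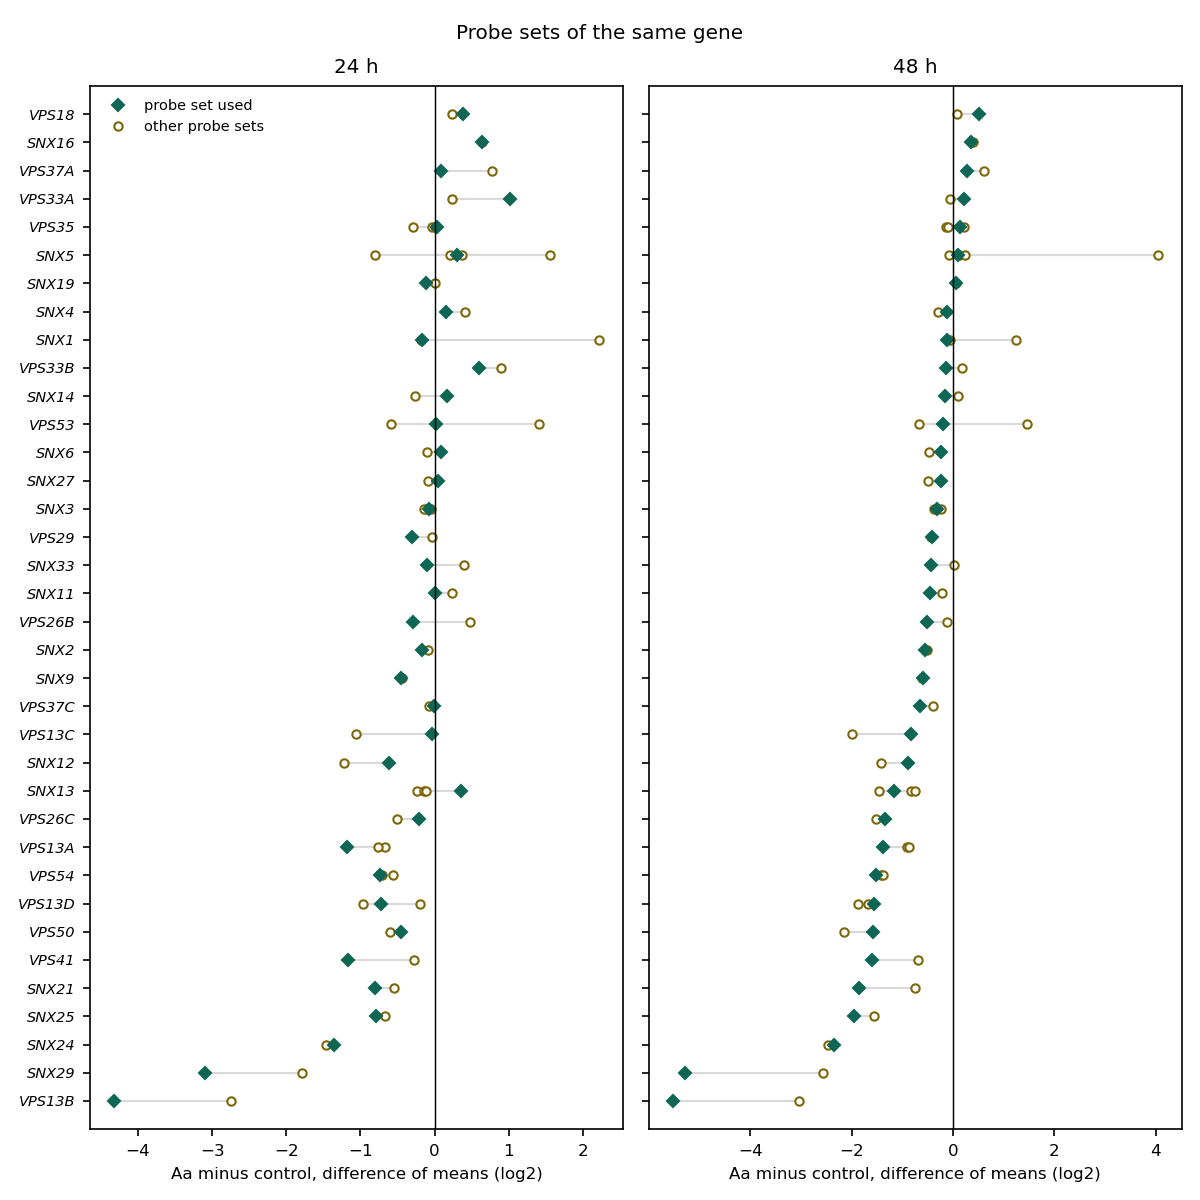
Difference of means (Aa minus control, log2) of every probe set over the filter for the 36 genes that have more than 1, at 24 h and 48 h; diamonds mark the probe set used and open circles the others. Most probe sets of a gene lie on the same side of 0, with an SNX5 probe set at 4.04 at 48 h far from the one used.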

How the data were processed

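The authors deposited log2 values made by GCRMA, a tool named in the submitters' processing notes without a version, which removes background by probe sequence, normalises between arrays and summarises probe sets. It can hide a shift common to all transcripts. Of 54675 probe sets, 41091 named 1 gene, and 4 family probe sets naming several genes were left out. From these values, log2 changes came from a limma 3.58.1 model (R 4.3.3, lmFit, eBayes) with a mean for each of 4 groups and 12 arrays, leaving 8 residual degrees of freedom and 2.79 from the prior. P-values were adjusted over 11184 genes (Benjamini-Hochberg, threshold 0.05). The number of arrays limits the precision, with a median SE of 0.161 for a log2 change. The script was tested on simulated data. Arrays under log2 4 in the dimmer group were set to log2 4 for a fold, which is then a lower bound.

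Replicate numbers paired the samples: deviations from group means correlated between 0.279 and 0.577 for all 18 same-numbered pairs, and between -0.371 and -0.0286 for the 36 others. Deviations within a group sum to 0, so positive values for same-numbered pairs push the others below 0. The negative values are therefore not separate evidence of pairing. The labels do not say what same-numbered samples share or how replicates were separated, so p-values measure the spread between these samples.

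Genes were named if they had a log2 change of at least 1 with an adjusted p under 0.05, with the retromer core, the highest-mean gene of any class left without one, and the 2 largest called changes at 48 h of each partner list. Other family genes were named after their values were seen. The members, lists and motifs were chosen with earlier results of these data known. Spans, promoters and gene names came from RefSeq on GRCh38.p14. Alternatives were the replicate block, 3 other scalings, filters, a floor, probe set means, another variance prior, fits by time and leaving out each array.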

Additional observations from a re-analysis of the deposited data

Results flagged for a closer look

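The 48 h change differed from the 24 h change for 12 of the genes named by rule, tested as an interaction in limma with adjustment over all genes. On the log2 scale the difference was -1.52 for SNX13, -1.20 for SNX10, -1.14 for VPS26C, -1.13 for VPS50 and -1.06 for SNX21. It was -0.986 for SNX24, -0.845 for VPS13D, -0.788 for VPS54 and -0.605 for VPS4B. All of these were called lower at 48 h, while at 24 h SNX13 was called higher and VPS26C and VPS4B were not called. For VPS36 (-0.993) and VPS33A (-0.795), called higher at 24 h, the change at 48 h was near 0. For VPS37B the difference was 0.847. Those of SNX21, SNX24, VPS13D, VPS26C, VPS33A, VPS36 and VPS37B each missed the threshold in 4 to 9 of the 12 fits without 1 array, and those of SNX13, SNX10, VPS50, VPS54 and VPS4B did not.

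Probe sets that the comparisons did not use were higher in Aa cultures by a log2 difference of at least 1, with no overlap of the groups and at a time when the used probe set was not called higher, for 3 genes. An SNX5 probe set read 8.75, 8.80 and 9.94 in Aa cultures against 4.64, 5.30 and 5.45 in controls at 48 h, a difference of 4.04 where the used probe set changed by 0.11. At 24 h the used SNX5 probe set was itself called higher. An SNX1 probe set read 9.13, 9.36 and 8.93 in Aa cultures against 6.74, 7.00 and 7.01 in controls at 24 h (difference 2.22), and its difference was 1.24 at 48 h. A VPS53 probe set differed by 1.41 at 24 h and 1.46 at 48 h. The groups did not overlap in any of these, no test was run on them, and which transcripts these probe sets read was not tested.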

How the results depend on the processing

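No setting turned the sign of a family gene called at 24 h or 48 h except the mean of all probe sets, which gave SNX13 -0.0272 at 24 h. Over 45 named genes and 1980 recomputed values, 1907 kept direction and side of the threshold, 24 no longer passed, 28 newly passed and 21 changed sign. Scaling to the hybridisation controls left 5 members higher and 26 lower at 24 h (9 and 17 as reported) and 3 higher at 48 h (5). Probe set means gave 8 of 58 higher at 48 h, where 30.6% of all genes were higher with the probe sets used. Of positive differences between times (1), the replicate block gave 3, and equal medians, hybridisation controls and no filter gave 0. Of negative ones (14), the block gave 23. Between control times, higher counts (0) were 3 with the block (6.65% of all genes). Lower counts (0) were 1 with the block (8.27% of all genes) and 6 with hybridisation controls (17.0% of all genes). Leaving out 1 array gave 7 to 9 higher and 14 to 18 lower at 24 h, 4 to 5 and 29 to 31 at 48 h, 0 to 1 positive and 6 to 17 negative differences, and 0 to 2 higher and 0 lower between control times. The block lost no call and took members called to 33 at 24 h and 38 at 48 h. With the block, 32.5% of all genes were higher and 29.1% lower at 24 h, and 35.3% higher and 38.0% lower at 48 h. The cause of these moves was not tested.

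Uncalled values changed sign as follows. With hybridisation-control scaling these were VPS33A -0.217 and VPS36 -0.384 at 48 h, VPS37B -0.0684, SNX27 -0.233 and VPS45 -0.228 at 24 h, and VPS35 -0.248 at 24 h and -0.308 at 48 h. With probe set means at 24 h they were VPS26B 0.0956, VPS35 -0.0621 and SNX27 -0.0200. SNX27 was -0.0115 with quantile normalization, and SNX15 0.0308 with equal medians. Leaving out 1 array gave -0.137 to 0.158 for VPS36 at 48 h, and at 24 h -0.0202 to 0.126 for VPS35, -0.0743 to 0.130 for SNX27, -0.0634 to 0.0615 for SNX15 and -0.0578 to 0.150 for VPS45. Protein length in place of span was not run.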
